A study of Mus musculus with 24 samples.

Results

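The endoplasmic reticulum (ER) is where secreted and membrane proteins fold, and 10 genes of its folding and stress machinery are described here. They were found by symbol in the count table of plasma vesicle RNA, where all 10 of 10 were present among 21960 genes. The chaperones are Hspa5, Hsp90b1, Calr and Canx. The disulfide isomerases are Pdia3 and Pdia4. Herpud1 belongs to ER-associated degradation, and Xbp1, Atf4 and Ddit3 encode transcription factors of the stress response. Vesicles had been precipitated from plasma of male C57BL/6J mice with ExoQuick, and stranded libraries were made from total RNA, with the usual removal of ribosomal RNA and enrichment of polyadenylated RNA both skipped. The 4 groups of 6 mice had a ligated bile duct or a sham operation and were killed 8 or 15 days after surgery, with 1 library per animal. No mouse carried a transgene or deletion per the labels, age is not given, and ligation, which stops bile flow, was the only difference in treatment between groups of the same day. The labels give the tissue as liver and the site as vesicles, and every value below is read as vesicle RNA. ExoQuick precipitates vesicles by polymer and does not sort them by cell of origin.

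When unfolded protein builds up in the ER, Hspa5 (BiP, also called GRP78) leaves the sensors IRE1, PERK and ATF6 and binds the unfolded chains. ATF6 and spliced XBP1 then raise chaperone and degradation genes through stress response elements, while PERK slows translation and favours ATF4, which in turn raises Ddit3 (CHOP). Hepatocytes are rich in rough ER because they make most plasma proteins, and cholestasis is a known setting of ER stress in liver. Splicing of Xbp1 and translation of Atf4 are steps that a count per gene does not show.

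The table is shallow for these genes. Totals ran from 101733 to 937963 counts per library, so that 1 count stood for 1.2 to 9.56 units on the normalised counts-per-million scale (CPM, relative to the TMM-scaled total of the tested genes). The gene model of Lars2 alone held 47.1% ± 4.19 (SD, n = 24) of the counts. At day 8 the animals numbered 4 to 6 in each group had deeper libraries than those numbered 1 to 3. The 10 members together held 52 to 474 counts per library. Their share of all counts was 0.043% ± 0.00848 after sham surgery and 0.0485% ± 0.011 after ligation at day 8 (SD, n = 6 each), and 0.0521% ± 0.00823 and 0.0615% ± 0.0114 at day 15. Low counts limited the tests to 7 members. Pdia4, Herpud1 and Ddit3, with 7.42, 8.83 and 2.88 counts per library on average, stayed below the filter on low counts.

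Per kilobase of annotated exon, Atf4 (34.4 ± 12.3 CPM per kb, SD, n = 24) and Calr (34.4 ± 11.8) stood highest. They were followed by Hsp90b1 (20.2 ± 8.56), Canx (20.1 ± 6.3), Pdia3 (16.3 ± 5.81) and Hspa5 (15.1 ± 7.08). Xbp1 (11.3 ± 5.3), Herpud1 (10.4 ± 4.62), Pdia4 (8.99 ± 6.1) and Ddit3 (4.41 ± 2.58) were lowest. No gene in this order differed from the next by more than the larger SD of the pair except at the step from Calr to Hsp90b1.

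With both days averaged, transcripts of Hspa5 and the lectin chaperones Calr and Canx were 1.5-fold to 1.9-fold higher after ligation than after sham surgery. These values are for vesicle RNA relative to the TMM-scaled total. None of these transcripts passed at a single day. TMM factors, which raise CPM when low, were 0.667 to 1.016 in ligated and 1.022 to 1.164 in sham libraries of day 8. At day 15 they were 0.899 to 0.993 and 0.943 to 1.239. As an unscaled share of all counts, the members together gave smaller log2 ratios of ligation to sham, 0.17 at day 8 and 0.24 at day 15. The part of the scaling in the fold changes was not tested. In the average 3 of the 7 tested members passed the threshold (adjusted p under 0.05), against 7.1% of all 4112 tested genes called higher and 3.5% called lower. No member fell. The median log2 fold change of the 7 was 0.55 beside 0.0008 over all tested genes, and 6 of 7 lay above 0, as 50% of all tested genes did. The transcription factor genes Xbp1 and Atf4 gave log2 fold changes of 0.26 and -0.09 and did not pass.

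The promoters of 4 of the 10 members hold the ER stress response element, the sequence through which ATF6 and XBP1 act. It was searched on both strands as CCAAT, 9 bases of any kind and CCACG, in RefSeq windows from 250 bases before to 50 bases after each transcription start (build GRCm38.p6). It was found in 39 of 32851 such windows (0.119%). The members holding it were Hspa5, Hsp90b1, Calr and Canx. These 4 had the largest log2 fold changes among the 7 tested members when both days were averaged. Pdia4, which had no exact match in its window and was below the filter, had 0.88 in the fit without the filter, beside 0.86 for Hspa5 there. The motifs were chosen with earlier results of these data known, and a link between element and change was not tested. Chaperone genes are known to be raised through such elements, so the presence of the element in the 4 chaperone genes is background and not a result of these data. At day 8 alone Pdia3, which had no exact match in its window, had a larger value (0.57) than Hsp90b1 (0.49). The sites of Hspa5, Hsp90b1, Calr and Canx are shown with 5 bases on each side because they are the sequence feature these 4 share. The element is in capitals, written 5′ to 3′ on the strand of the gene, and it reads in reverse (CGTGG to ATTGG) where the match was on the other strand.
Hspa5: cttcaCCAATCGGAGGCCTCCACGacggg
Hsp90b1, distal: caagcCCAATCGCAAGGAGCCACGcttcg
Hsp90b1, proximal: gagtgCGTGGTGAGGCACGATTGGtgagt
Calr: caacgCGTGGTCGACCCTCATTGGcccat
Canx: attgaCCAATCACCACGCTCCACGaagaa
Herpud1 (element II): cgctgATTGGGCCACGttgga

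The Hspa5 stretch lies at chr2:34772020-34772048 on the plus strand, its element 65 to 47 bases before the RefSeq start. The GENCODE M21 gene model of Hspa5 begins further upstream, at 34771970, so that this stretch lies inside that model. The other stretches lie upstream of their GENCODE models. Those of Hsp90b1 are at chr10:86705633-86705661 and chr10:86705528-86705556, minus strand, and that of Calr is at chr8:84847070-84847098, minus strand. The stretch of Canx is at chr11:50325795-50325823, minus strand. Herpud1 held the shorter ER stress response element II (ATTGG, any base, CCACG, searched on both strands) at chr8:94386372-94386392 on the plus strand, a motif found in 12 windows (0.0365%). No other member had either element in this window. Neither the core of the unfolded protein response element, TGACGTGG, nor the C/EBP-ATF element TGATGNAAT was found in a member's window. They occurred in 0.676% and 0.965% of all windows. Outside the members, 33 genes held the ER stress response element in a window, and 2 of them were tested, Dnajc3 (0.37, SE 0.25) and Hnrnpa3 (0.19, SE 0.12). Both log2 fold changes are for the average of both days, and neither passed. A match of letters is not a measured binding site.

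**Figure D1:**
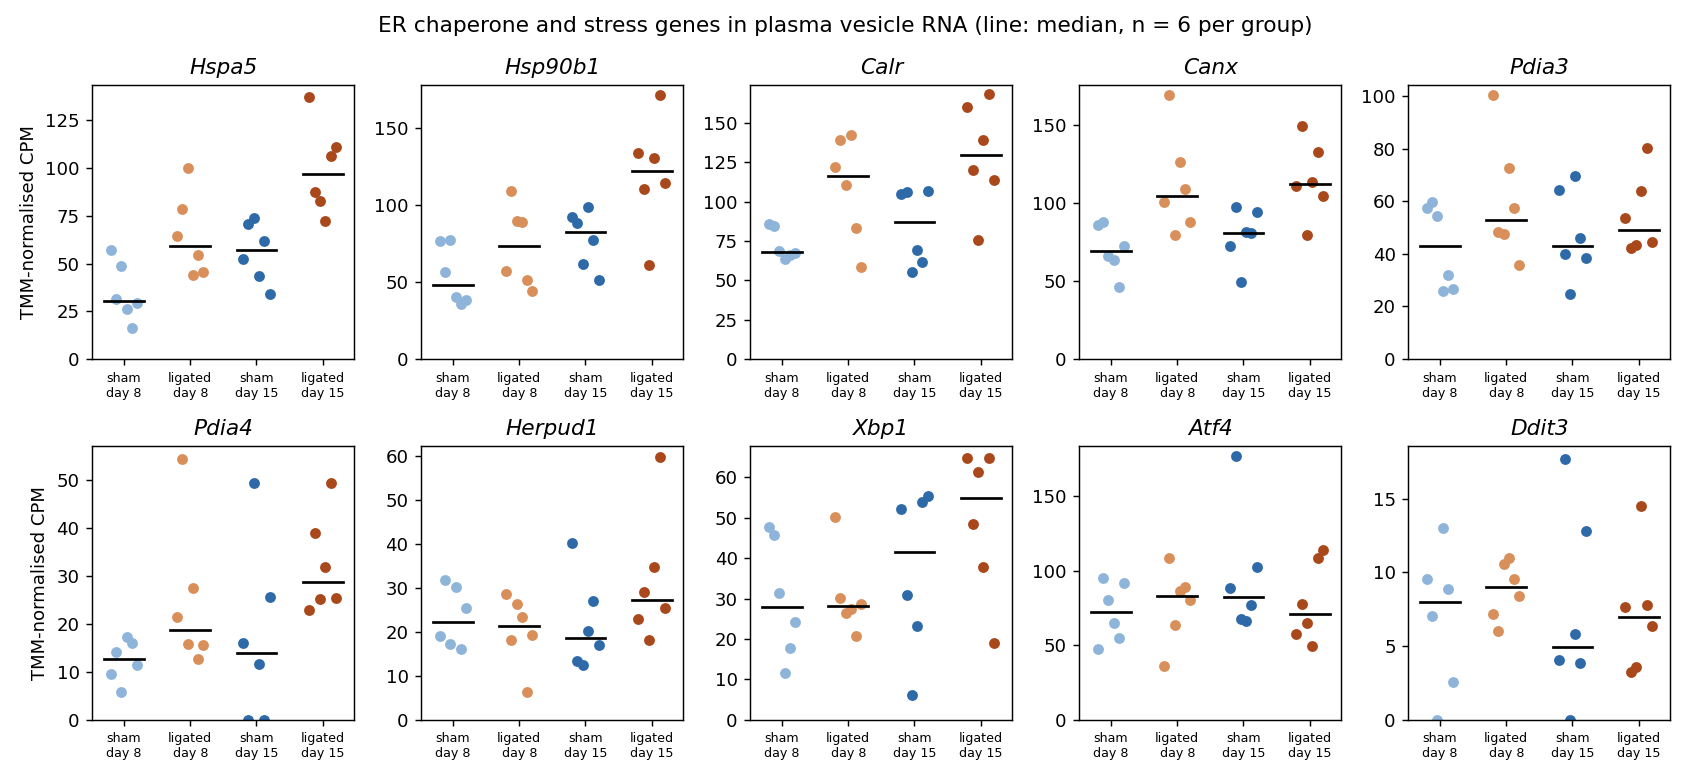
Normalised CPM (vertical axes, each from 0) of the 10 members in the 4 groups, 1 point per animal in order of animal number, with a line at the median of 6. The ligated and sham points overlap for every member at both days, and the ligated median is the lower one only for Herpud1 at day 8 and Atf4 at day 15.

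Hspa5, the ER member of the HSP70 family and the master chaperone of the stress sensors (ENSMUSG00000026864, GRCm38 chromosome 2, 34771970 to 34777547, plus strand), showed the largest ligation effect of the 7 tested members. In sham animals of day 8 it ran from 16.0 CPM over a median of 30.5 to 57.4, and in ligated animals from 43.8 over 59.4 to 100.3. At day 15 it ran from 34.2 over 57.0 to 74.1 after sham surgery and from 72.6 over 96.9 to 137.5 after ligation. All 6 ligated animals lay above the sham median at each day, 3 of 6 above the highest sham animal at day 8 and 5 of 6 at day 15. The log2 fold change was 0.94 (SE 0.28, adjusted p = 0.0592) at day 8 and 0.85 (SE 0.26, adjusted p = 0.0611) at day 15. Neither day passed alone. The average of both days was 0.89 (SE 0.19, adjusted p = 0.00236), a 1.85-fold rise (95% interval 1.42 to 2.43). With the animal number as a replicate block, a pairing inferred from these data alone, the day 8 value was 0.96 (adjusted p = 0.0223) and passed. Leaving out any 1 of the 24 libraries kept the averaged call (0.79 to 0.97, adjusted p up to 0.00744). The single days sat at the threshold: day 8 passed without sham animal 1 or 3 or ligated animal 6 (adjusted p 0.043 to 0.0478), and day 15 without sham animal 2 or ligated animal 4 (0.046 and 0.0455).

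Canx, the membrane-bound lectin chaperone calnexin (ENSMUSG00000020368, chromosome 11, 50293961 to 50325673, minus strand), holds newly made glycoproteins until they are folded. It ran from 46.3 over 69.2 to 88.0 CPM in sham animals and from 79.2 over 104.6 to 169.4 in ligated animals at day 8. At day 15 the sham animals spanned 49.4 to 97.4 with a median of 81.0, and the ligated animals 79.4 to 149 with a median of 112. At day 8, 4 of 6 ligated animals were above the highest sham animal, and at day 15 it was 5 of 6. The log2 fold changes were 0.70 (SE 0.21, adjusted p = 0.0592) at day 8, 0.53 (SE 0.21, adjusted p = 0.151) at day 15 and 0.61 (SE 0.15, adjusted p = 0.00664) averaged, a 1.53-fold rise (1.24 to 1.88). With the replicate block the day 8 value of Canx was 0.70 (adjusted p = 0.0276) and passed, as it did without ligated animal 6 (0.77, adjusted p = 0.0474).

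Calr, the soluble lectin chaperone calreticulin, which also stores calcium in the ER (ENSMUSG00000003814, chromosome 8, 84841850 to 84846934, minus strand), had the most counts of the members, 830 in all. The 6 sham animals of day 8 were close together, from 63.5 over 68.0 to 86.1 CPM, while the ligated animals spread from 58.7 over 116.4 to 142.4. At day 15 the ranges were 55.6 to 106.8 (median 87.0) and 75.8 to 168.6 (median 129.6). The lowest ligated animal lay below the lowest sham animal at day 8, and 4 of 6 ligated animals lay above the highest. The log2 fold change was 0.58 (SE 0.23, adjusted p = 0.219) at day 8, 0.62 (SE 0.23, adjusted p = 0.126) at day 15 and 0.60 (SE 0.16, adjusted p = 0.0159) averaged, a 1.52-fold rise (1.2 to 1.92). The averaged call of Calr was lost when no filter on low counts was set (0.57, adjusted p = 0.0537).

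Hsp90b1, the ER member of the HSP90 family (GRP94), which folds integrins and Toll-like receptors (ENSMUSG00000020048, chromosome 10, 86690209 to 86705509, minus strand), had a change of similar size that missed the threshold. Sham animals of day 8 ran from 35.6 over 48.3 to 77.3 CPM and ligated animals from 44.3 over 73.2 to 108.9. At day 15 the sham animals spanned 51.3 to 98.4 (median 82.8), and the ligated animals 61.3 to 171.2 (median 122.4), with 5 of 6 above the highest sham animal. The averaged log2 fold change was 0.55 (SE 0.19, adjusted p = 0.0601). It passed when sham animal 3 of day 8, ligated animal 6 of day 8 or ligated animal 3 of day 15 was left out (0.48 to 0.63 over 24 refits, adjusted p 0.0281 to 0.139). With the replicate block it was 0.57 (adjusted p = 0.016). That fit also pairs the libraries of day 15, where deviations of same-numbered libraries correlated by only -0.031 to 0.113.

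The isomerases form and rearrange disulfide bonds. Pdia3 (ERp57), the partner of calnexin and calreticulin on glycoproteins, had medians of 43.2 CPM after sham surgery and 52.9 after ligation at day 8, and 43.0 and 48.9 at day 15. The groups overlapped widely, and the averaged log2 fold change was 0.37 (SE 0.20, adjusted p = 0.26; 95% interval -0.04 to 0.79). Pdia4 (ERp72) was too sparse for the main test. It had 37 counts over the sham and 56 over the ligated libraries of day 8, or 13.3 (exact 95% Poisson interval 9.37 to 18.4) and 20.9 (15.8 to 27.1) CPM over the pooled libraries. At day 15 it had 22 and 63 counts, or 14.9 (9.34 to 22.6) and 33.3 (25.6 to 42.6) CPM. The sham animals of day 15 included 2 libraries without a count and 1, animal 3, at 49.4 CPM, as high as the highest ligated animal. Fitted without the filter, Pdia4 gave an averaged log2 fold change of 0.88 (SE 0.31, adjusted p = 0.0631), beside a median of 0.25 over all genes of that fit, which holds many genes near 0 counts. Intervals from counts cover the counting error of the pooled libraries only. They leave out the spread between animals, and reads carried no molecular identifiers.

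Herpud1, a membrane protein of the degradation complex that stress induces strongly, had no common direction. Its counts were 67 over sham and 49 over ligated libraries at day 8, or 24.1 (18.7 to 30.6) and 18.3 (13.5 to 24.1) CPM, and 33 and 63 at day 15, or 22.4 (15.4 to 31.4) and 33.3 (25.6 to 42.6) CPM. Without the filter the averaged log2 fold change was 0.08 (SE 0.28, adjusted p = 1).

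Of the 3 transcription factor genes, Xbp1 and Atf4 did not pass in any ligation comparison, and Ddit3 was not tested in the main fit. Xbp1, the factor that IRE1 activates by splicing, ran from 11.5 over 27.8 to 47.8 CPM in sham and from 20.8 over 28.1 to 50.2 in ligated animals of day 8. At day 15 it ran from 6.18 over 41.6 to 55.5 and from 19.0 over 55.0 to 64.9. Its averaged log2 fold change was 0.26 (SE 0.26, adjusted p = 0.585), with a 95% interval of -0.28 to 0.79 that includes both 0 and the estimates of Calr and Canx. Atf4, the factor whose translation PERK favours, ran from 47.8 over 72.5 to 95.02 CPM in sham and from 35.9 over 83.3 to 108.9 in ligated animals of day 8. At day 15 it ran from 66.6 over 82.8 to 177 in sham and from 49.3 over 71.3 to 114.1 in ligated animals. Atf4 had an averaged value of -0.09 (SE 0.19, adjusted p = 0.826), and its 95% interval, -0.47 to 0.29, lies below the estimates of Hspa5, Canx and Calr. That difference between genes was not tested. Ddit3, which encodes the pro-apoptotic factor CHOP, had 19 and 25 counts over the sham and ligated libraries of day 8 and 11 and 14 at day 15. These are 6.84 (4.12 to 10.7), 9.31 (6.03 to 13.7), 7.45 (3.72 to 13.3) and 7.39 (4.04 to 12.4) CPM. Fitted without the filter, Ddit3 gave an averaged log2 fold change of 0.18 (SE 0.47) and did not pass. No change of Ddit3 was detected at this depth.

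**Figure D2:**
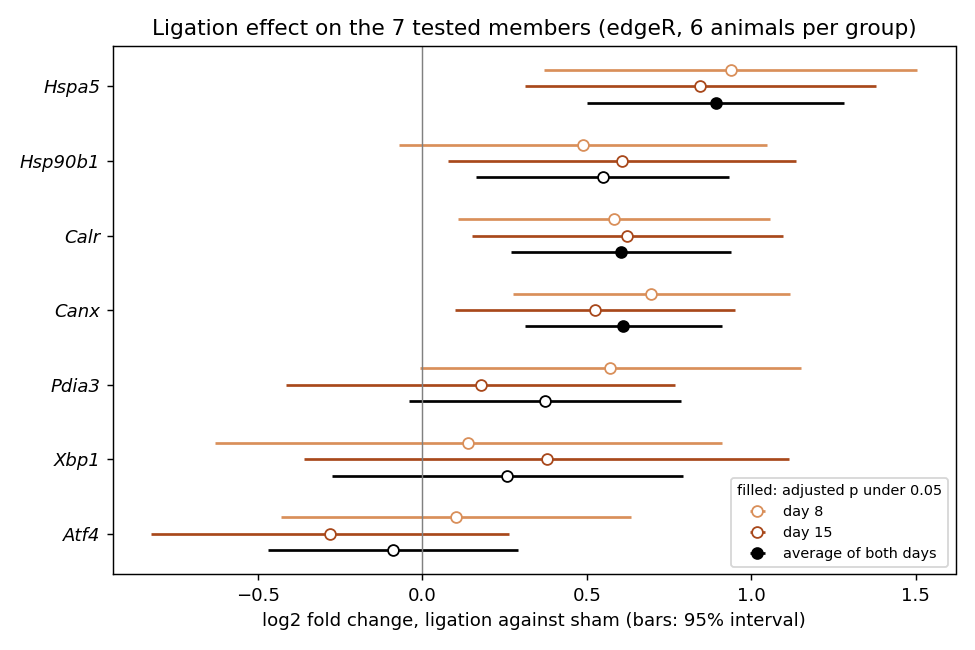
Log2 fold change of ligation against sham surgery (horizontal axis) with 95% intervals for the 7 tested members at day 8, at day 15 and averaged, filled where the adjusted p was under 0.05. Hspa5, Calr and Canx are filled for the average at 0.89, 0.60 and 0.61, and the intervals of Xbp1 and Atf4 cross 0 in every comparison.

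For no member did the ligated and sham animals separate fully at either day. Among all tested genes, 1.97% had every ligated animal above every sham animal at day 8 and 2.38% at day 15, and 0.34% and 0.803% had every ligated animal below. Within single days 0 of 7 members passed, where 2.77% (day 8) and 3.48% (day 15) of tested genes were called higher and 0.365% and 1.07% lower. At an unadjusted p under 0.05, 3 members were higher at day 8 and 4 at day 15, against 9.7% and 9% of tested genes, and none was lower, against 4.6% and 9.07%. DESeq2 called 1 member at day 8, Canx (0.69, adjusted p = 0.0388), where it called 3.94% of tested genes higher, and 0 at day 15, where it called 3.67% higher. With the replicate block 2 members passed at day 8, where 4.11% of tested genes were called higher. The ligation effect of a member did not differ detectably between days: 0 of 7 members and 0 of 4112 genes passed for the difference (edgeR, 0 members at unadjusted p under 0.05, against 2.12% of genes higher and 3.57% lower). For Hspa5 the difference was -0.09 with a 95% interval of -0.85 to 0.66.

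The day 8 libraries numbered 1 to 3 and 4 to 6 were also taken separately, because their depths differ. At day 8 Hspa5 gave 0.86 in animals 1 to 3 and 0.95 in animals 4 to 6 (adjusted p 0.353 and 0.261), Canx 0.52 and 0.78 (0.639 and 0.285), and Calr 0.61 and 0.50 (0.554 and 0.599). The direction was the same in both subsets, and with 3 animals per group neither passed. With only 1 subset of day 8 kept in the average, Hspa5 passed with either (adjusted p = 0.0164 and 0.00412), Canx with animals 4 to 6 only (0.13 and 0.0161) and Calr with neither (0.0699 and 0.0896).

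Values at day 15 were also set against those at day 8 within each arm. Hspa5 had log2 values of 0.81 (SE 0.29, adjusted p = 0.331) in sham and 0.72 (SE 0.25, adjusted p = 0.108) in ligated animals for day 15 against day 8, and Hsp90b1 of 0.65 (SE 0.27, adjusted p = 0.395) and 0.77 (SE 0.26, adjusted p = 0.088). Neither passed, and among all tested genes 0% were called in either direction in sham animals, and 2.26% were called higher and 2.09% lower in ligated animals. In ligated animals Hspa5 passed without animal 3 of day 8 (0.88, adjusted p = 0.0263), and Hsp90b1 without animal 3 of day 15 (0.90, adjusted p = 0.041). These values rest on which day 8 libraries are used. Against the deep day 8 libraries alone, Hspa5 was called in sham (1.21, adjusted p = 0.0116) and ligated animals (1.10, adjusted p = 0.00329). Hsp90b1 was called there too (1.08, adjusted p = 0.0322, and 1.02, adjusted p = 0.0128). In those fits 1.63% of tested genes were called higher in sham and 6.76% in ligated animals. In the sham animals of day 8, numbers 1 to 3 had 57.4, 31.7 and 48.6 CPM of Hspa5 and numbers 4 to 6 had 26.0, 16.0 and 29.3. Libraries were sequenced in a pool of 12 per the labels, which do not name the members of a pool, so that an effect of the pool was not tested.

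Markers of some other cell types differed between the same groups. At day 8, 2 of 7 tested neutrophil markers and 2 of 5 tested monocyte and macrophage markers were called higher, and at day 15 0 and 1. None of 10 tested platelet markers and none of 3 tested plasma cell markers passed at either day. A list of 20 hepatocyte markers summed to 40.9 to 142.5 CPM in sham and 456.6 to 6859 in ligated animals at day 8, and to 72.4 to 183.7 and 3780 to 29560 at day 15. All 20 were detected after ligation, while Apoh and Fgb were at 0 in the sham libraries of day 8 and Fgg, Hpd, Mat1a and Serpina3k were among those at 0 in the sham libraries of day 15. Erythroid markers (9 genes) summed to 56310 to 83610 CPM in sham and 86980 to 200300 in ligated animals at day 8, but to 52420 to 141400 and 51120 to 111100 at day 15, and 8 of 9 rose at day 8 and 0 at day 15. Neutrophil markers (10 genes) had medians of 383.6 and 1359 CPM at day 8 and 943.2 and 1126 at day 15, and monocyte and macrophage markers (10 genes, Clec4f at 0 after ligation at day 8 and Marco at 0 in sham animals of day 15) 506.6 and 867.8, then 537.7 and 630.8. Platelet markers (10 genes) had medians of 3054 and 3731, then 1272 and 1543. Plasma cells are also rich in ER. Their 10 markers, which include Xbp1 itself, had medians of 180.2 and 163.3 CPM at day 8 and 153.8 and 179 at day 15, with Tnfrsf17 at 0 in 3 of the 4 groups and Derl3 at 0 in sham animals of day 8. Of 9 pancreatic acinar markers only 1 or 2 had a count in any group. The part of each cell type in the chaperone values was not tested. More cells releasing vesicles and more RNA of a gene per cell cannot be told apart in such bulk libraries.

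The chaperones are set beside the hepatocyte sum for single animals. Among the ligated animals of day 15, number 6 had the lowest hepatocyte sum (3780 CPM) with 110.9 CPM of Hspa5, and number 5 the highest (29560 CPM) with 106.4. For Hsp90b1 the same animals had 114.1 and 171.2 CPM, and for Calr 114.1 and 168.6. Number 1 of the ligated animals of day 15, with a sum of 14280 CPM, had the highest Hspa5 of its group (137.5 CPM). Of the ligated animals of day 8, number 3 stood out with a sum of 6859 CPM. It had the highest Hspa5 of its group (100.3 CPM, 19 counts) but the lowest Canx (79.2 CPM, 15 counts). That library also had the lowest TMM factor of all (0.667), which raises its CPM, and the lowest Lars2 share (31.6%).

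**Figure D3:**
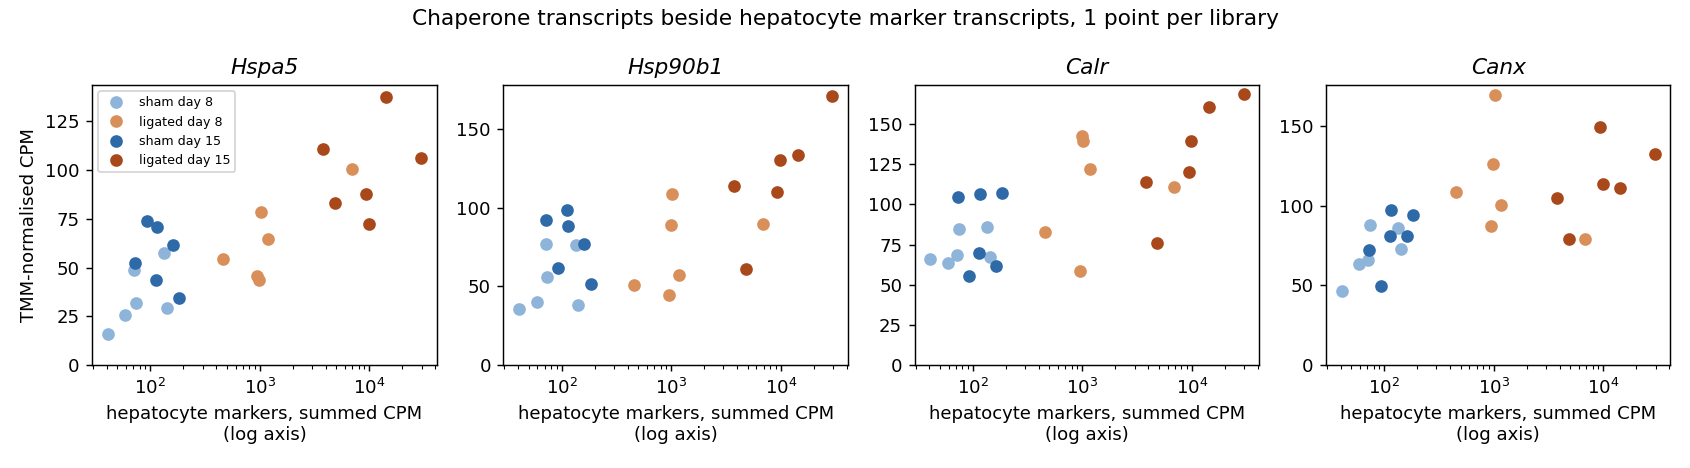
Normalised CPM of Hspa5, Hsp90b1, Calr and Canx (vertical axes, from 0) against the summed CPM of 20 hepatocyte markers (log axis), 1 point per library. Sham libraries lie at 40.9 to 183.7 CPM of markers and ligated libraries at 456.6 to 29560. Sham levels of the chaperones are well above 0, and the plot gives no estimate of how much of their RNA came from hepatocytes.

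Some members correlated across animals. Over the 24 libraries the Pearson correlation of log2 CPM was 0.78 between Hspa5 and Hsp90b1 and 0.78 between Calr and Canx, and the tested gene most like Canx was Calr. With each library taken as its deviation from its group mean, the same pairs gave 0.57 and 0.63. Hsp90b1 was most like C3, the complement protein made mainly by liver (0.79), and then Hspa5. The genes most like Hspa5 were Cd36, a fatty acid receptor (0.83), and Xrn1, an RNA exonuclease (0.81). Those most like Calr were Igf1, a liver growth factor (0.81), and C4b, a complement gene (0.79). Xbp1 was most like Sec63, a partner of the ER translocon (0.79), and Sult1a1, a sulfotransferase (0.79). Pdia3 and Atf4 had weaker matches (Mkln1 and Mrps24 at 0.67 and 0.63, Fkbp1a and Pdlim7 at 0.70 and 0.68). These values describe libraries that share groups, depth and scaling, and they carry no test.

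In the wider pathway, 116 further genes of 5 lists were in the table and 41 were tested. Averaged over both days 8 of the 41 rose and 0 fell, beside 7.1% and 3.5% of all tested genes. Their median log2 fold change was 0.24. A gene that passed the filter through one group alone had to differ, so the 41 do not stand for the 116. Of 25 ATF4 and CHOP targets 8 were tested and 4 rose (median of the list 0.57). Among those that rose, Slc7a5, Slc3a2 and Ddit4 were low after sham surgery, with maxima of 28.7, 28.2 and 25.8 CPM at day 8. At day 15 their sham maxima were 39.8, 26.6 and 42.4 CPM. These genes may have passed the filter mainly through ligated libraries, so the number that rose does not stand for the list. Of the 8 tested, 6 lay above 0, while Atf5 (-0.32) and Aars (-0.10) lay below 0 and did not pass. Ppp1r15a (GADD34), the phosphatase subunit that ends the PERK signal, rose by 1.59 (SE 0.33, adjusted p = 0.00168), and at day 8 by 1.85 (SE 0.47, adjusted p = 0.0267). Its medians were 30.2 CPM after sham surgery and 114.3 after ligation at day 8 and 49.3 and 140.7 at day 15. At day 8 its call ended without sham animal 2, 4 or 5 or ligated animal 1, 2 or 3 (1.47 to 2.08 over 12 refits), and in the deep libraries alone it was 1.03 (adjusted p = 0.483).

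Ddit4 (REDD1), an inhibitor of mTORC1 that stress and glucocorticoids induce, rose by 1.34 (SE 0.31, adjusted p = 0.00493) on average and by 1.99 (SE 0.43, adjusted p = 0.00458) at day 15. There every ligated animal (66.7 to 129.9 CPM) lay above every sham animal (8.85 to 42.4 CPM). At day 8 its medians were 23.1 and 25.0 CPM. The 2 chains of an amino acid transporter rose together. Slc7a5, the transporting chain, rose by 1.18 (SE 0.30, adjusted p = 0.0108), and Slc3a2, the heavy chain, by 0.78 (SE 0.23, adjusted p = 0.0254). Their calls ended with only the deep day 8 libraries (1.07, adjusted p = 0.0583, and 0.58, adjusted p = 0.165). That of Slc3a2 also ended without sham animal 4 of day 15 (adjusted p = 0.0631) and with no filter (0.0923).

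Of 30 further ER folding genes 7 were tested and P4hb rose (median of the list 0.14). P4hb, the classical protein disulfide isomerase and a subunit of collagen prolyl hydroxylase, had the smallest p of the pathway. Its log2 fold change was 1.74 (SE 0.25, adjusted p = 3.51e-05) at day 15, with medians of 72.5 and 224 CPM, and 1.27 (SE 0.18, adjusted p = 1.75e-05) on average. All 6 ligated animals of day 15 (202.8 to 363.2 CPM) lay above all 6 sham animals (65.5 to 92.5 CPM). At day 8 it was 0.79, with medians of 63.3 and 143.5 CPM (adjusted p = 0.0936). Among all alternatives run it passed there only with the replicate block (0.81, adjusted p = 0.0239) or without sham animal 1 (adjusted p = 0.0132), whose value of 181.7 CPM was the highest of its group.

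Of 14 sensors and kinases 5 were tested and 2 rose (median 0.54). Eif2ak1, the heme-regulated kinase that acts beside PERK and is abundant in red cell precursors, rose by 0.99 (SE 0.22, adjusted p = 0.00355). Its medians were 42.0 and 78.9 CPM at day 8, where 8 of 9 erythroid markers rose, and 26.4 and 61.8 CPM at day 15, where 0 of 9 did. Their part in this value was not tested. Tmbim6, an ER membrane protein that restrains IRE1, rose by 0.54 (SE 0.16, adjusted p = 0.0334), and its call ended in 10 of 24 refits without 1 library (0.42 to 0.58, adjusted p up to 0.0772), with either day 8 subset alone and with no filter. Atf6, the sensor that cleaves into a chaperone-inducing factor, had 0.84 (SE 0.28, adjusted p = 0.0537). In the translocon and glycosylation list 1 of 11 tested genes of 24 rose (median 0.26). This was Ssr3, a subunit of the translocon-associated complex (0.71, SE 0.20, adjusted p = 0.0176), whose call ended without ligated animal 4 of day 8 (adjusted p = 0.0578) or with only the shallow day 8 libraries (0.47, adjusted p = 0.367). None of the 10 tested degradation genes of 23 passed (median 0.17). Among those with the smallest p were Edem1 (0.67, adjusted p = 0.181) and Nploc4 (-0.38, adjusted p = 0.182).

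**Figure D4:**
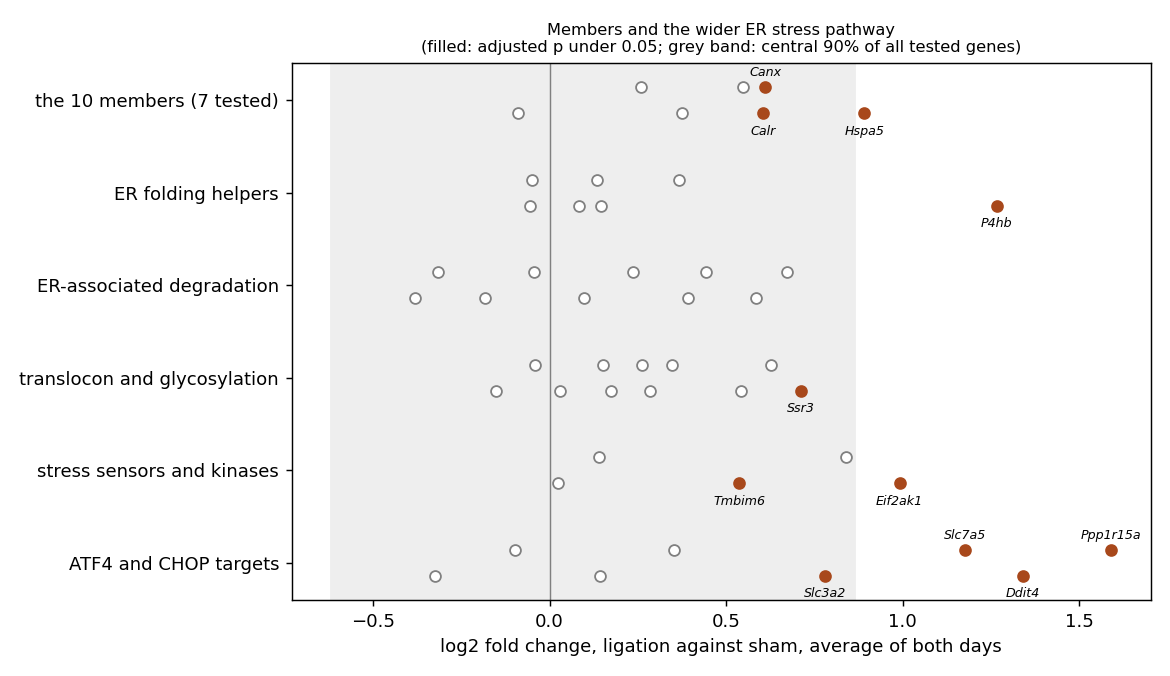
Log2 fold change of ligation against sham surgery, averaged over both days (horizontal axis), for the tested members and 5 pathway lists, filled and named where the adjusted p was under 0.05; the grey band holds the central 90% of all tested genes (-0.62 to 0.87). P4hb, Ppp1r15a, Ddit4, Slc7a5, Eif2ak1 and Hspa5 lie to the right of the band.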

How the data were processed

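The data are 1 deposited table of expected counts per gene in 24 libraries. Per the submitters' processing notes the authors used STAR and RSEM, with versions not given in the sources used here; all deposited expected counts are whole numbers. The notes name hg38 although identifiers are mouse Ensembl genes, so the alignment build was not established. Coordinates and exon lengths come from GENCODE M21 (GRCm38) by identifier. Groups come from the titles. Genes were kept by filterByExpr (minimum count 10, minimum total 15), which left 4112 holding 92.3% ± 1.12 of counts. They were tested with edgeR 4.0.16 (TMM, quasi-likelihood F-test, 1 mean per group, 24 libraries, Benjamini-Hochberg over all tested genes, threshold 0.05; checked on simulated data). The SE is the log2 fold change divided by the root of F. Where a gene varies less than Poisson sampling allows, edgeR takes the larger p. CPM use the TMM-scaled totals of tested genes. DESeq2 1.42.0, other filters and scalings, the replicate block, depth subsets and refits without 1 library were alternatives.

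Members, gene lists, motifs and the naming rule were set with earlier results of these data known. The rule names all members, the called genes of each list (or the 3 with the smallest p), and, for each tested member averaging at least 10 counts per library, the 2 most alike tested genes (predicted genes left out). Some genes that the rule would name are not reported here. Correlations add a prior count of 2. All 10 members matched RefSeq promoter windows. Deviations of same-numbered ligated and sham libraries from their group means correlated by 0.165 to 0.327 at day 8 (6 of 6 over 0.1) and by -0.031 to 0.113 at day 15 (1 of 6). The pairing rests on these data alone and holds for day 8 only. Libraries within a group differed beyond sampling noise (chi-square per degree of freedom at least 1.66), so none was treated as a repeat.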

Additional observations from a re-analysis of the deposited data

Results flagged for a closer look

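In 40 sets of 6 animals (10 members in 4 groups), 3 single libraries lay far from the other 5 of their set; chance alone sets apart about 1 in 20. Ligated animal 2 of day 8 had 54.5 CPM of Pdia4 (9 counts), with the next at 27.4. Ligated animal 1 of day 8 had 50.2 CPM of Xbp1, with the next at 30.3. Sham animal 2 of day 15 had 177 CPM of Atf4, with the next at 102.5, and without it the averaged log2 fold change of Atf4 was 0.04 instead of -0.09.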

How the results depend on the processing

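Of 116 recomputed counts of calls 81 stayed within 1.5 times the value reported. Of 495 single-gene values and shares 447 kept direction and side of the threshold and 16 changed sign, each of them uncalled. With the settings reported, 114 genes were called higher and 15 lower at day 8, 143 and 44 at day 15, 292 and 144 averaged, and 179 between days after ligation. DESeq2 called 24 lower and 1 member at day 8, 1 gene for the difference between days and 5 between days after sham surgery. With no filter 263 were higher and 35 lower at day 8, 553 and 135 at day 15, 817 and 224 averaged, 51 differed between days, and 150 (sham) and 652 (ligation) were called between days. The filter of 20 counts gave 77 higher at day 15, 160 higher averaged and 105 between days after ligation. The replicate block gave 33 lower and 2 members at day 8. It gave 71 lower and 1 member (Hspa5, 0.84) at day 15, and 1 gene for the difference, although same-numbered libraries all correlated over 0.1 at day 8 only. With the libraries of day 15 alone 1 member passed, Hspa5. With day 8 libraries 1 to 3 there were 44 higher and 1 lower at day 8, 73 lower and 1 member averaged, and 0 between days after ligation. With libraries 4 to 6 there were 4 and 0 at day 8, 185 and 86 averaged, and between days 241 genes and 2 members (sham) and 577 and 2 (ligation). The cause of these shifts was not tested. Values that changed sign were those of Atf4 between days after ligation (0.0274 with DESeq2 size factors, 0.0231 without Lars2, 0.0249 with DESeq2, 0.0791 with the filter of 20, 0.1832 with libraries 1 to 3) and Canx there (-0.0482 with no filter). With libraries 1 to 3 they were Xbp1 (-0.2469) and Atf4 (-0.1979) at day 8, Calr (-0.0095) and Pdia3 (0.0338) for the difference, and Pdia3 (-0.2334) and Xbp1 (-0.0954) between days after sham surgery. With libraries 4 to 6 they were Ddit4 at day 8 (-0.0493), Hsp90b1 (-0.0615) and Xbp1 (-0.1283) for the difference, and Pdia3 between days after ligation (0.0488). Without 1 library, day 8 gave 52 to 136 higher, 4 to 16 lower and 0 to 2 members, day 15 gave 24 to 59 lower and 0 to 1 members, the difference 0 to 2 genes, and the days 0 to 4 (sham) or 37 to 336 genes and 0 to 1 members (ligation). The same refits spanned, for the difference, Hspa5 -0.2533 to 0.0701, Hsp90b1 -0.0438 to 0.2497 and Calr -0.1152 to 0.1665. For the days after ligation they spanned Canx -0.0314 to 0.1801, Pdia3 -0.2337 to 0.0529 and Atf4 -0.1359 to 0.1042. Xbp1 at day 8 spanned -0.086 to 0.3345 and averaged Atf4 -0.1551 to 0.0399. Depth limits what can be tested here: 3 of 10 members had too few counts for the main test, and the others averaged 12 to 34.6 counts per library.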
